A study of Homo sapiens with 8 samples.

Results

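The RING1B and BMI1 knockdown arrays of a human skin carcinoma study were compared with each other: 2 arrays labelled with a short hairpin against RING1B and 2 labelled with a short hairpin against BMI1, chosen by their labels from 8 arrays in all. The cells were SCC13, an established line from a cutaneous squamous cell carcinoma, and total RNA was hybridised to whole-transcript expression arrays. The remaining arrays were 2 of a GFP hairpin (shGFP), the control, and 2 of a hairpin against EZH2 (shEZH2), whose titles carry another prefix (SCCL3) although their cell line field also reads SCC13. The labels give no time after transduction. Whether replicate arrays stand for separate cultures is also not in the labels, and a p-value then describes the spread among these arrays alone, which could be technical.

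RING1B (gene RNF2) and BMI1 sit side by side in Polycomb repressive complex 1 (PRC1), which places ubiquitin on histone H2A at silenced genes. RING1B, or its paralogue RING1, is the catalytic E3 ligase in all forms of the complex. BMI1 (also called PCGF4) is a partner subunit best known from canonical forms, and other PCGF proteins can take its place. In stratified epithelia the complex is known for holding back differentiation genes, developmental regulators and the cell cycle inhibitors of the CDKN2A locus. The comparison asks what differs when one or the other subunit is targeted.

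Over 14884 annotated genes, each read from 1 probe set, the compared arrays were close to each other. Values are log2 expression, so that a difference of 1 is a 2-fold change, and every difference below is shRING1B minus shBMI1 unless another pair is named. Across genes the 2 shRING1B arrays correlated at 0.9945 with each other and the 2 shBMI1 arrays also at 0.9945, and arrays of different hairpins in this comparison correlated at 0.9932 to 0.9943. The median difference was 0 and its median standard error (SE, from the limma fit over all 8 arrays) was 0.11. Only 8 genes differed by 1 or more, 5 higher and 3 lower with shRING1B. Array medians lay between 5.49 and 5.52. The squamous markers KRT5 and SFN, shown as a check of the cell type, were among the brighter genes on all 4 arrays. KRT5 was at 10.10 and 10.30 with shRING1B and 10.34 and 10.56 with shBMI1, and SFN at 11.55 and 11.40 against 11.45 and 11.53. KRT14 was at 9.04 and 9.29 against 9.22 and 9.53. KRT15, another squamous marker, was far dimmer, at 5.86 and 6.03 against 5.51 and 5.81. Not all squamous markers are shown. Median levels of the leukocyte, fibroblast, endothelial and melanocyte marker lists lay between 4.42 and 6.42 on these arrays. Neither hairpin's own target could be checked, since RNF2 and BMI1 were not analysed here, having no named probe set in the table of probe names.

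Two-sided moderated tests by limma with Benjamini-Hochberg adjustment called 2 genes at an adjusted p under 0.05, both higher with shRING1B: LIF and KRTAP2-3. They are 0.0134% of the genes tested, and no gene was called lower (0%). An unadjusted p under 0.05 was reached by 1367 genes (9.18%), 775 with higher values (5.21%) and 592 with lower values (3.98%), where chance gives 744.2. With 2 arrays per group an exact permutation test cannot go below p = 0.333, so the model across genes carries the test, with a precision limited by the few arrays.

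LIF, a secreted cytokine of the interleukin 6 family, stood at 7.22 and 7.06 on the shRING1B arrays and at 6.23 and 6.19 on the shBMI1 arrays. The shGFP arrays, at 6.31 and 6.28, lay beside the shBMI1 arrays, and the groups compared did not overlap. The difference was 0.93 ± 0.09 (SE, n = 2 per group), a 1.90-fold higher level with shRING1B (adjusted p = 0.0439 by limma). Against shGFP, LIF was at 0.84 ± 0.09 with shRING1B (adjusted p = 0.0598) and at -0.08 ± 0.09 with shBMI1 (adjusted p = 0.999).

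KRTAP2-3 encodes a keratin-associated protein, a class best known from the hair shaft; the rule for naming genes leaves out this class, and the gene is given here because it is 1 of the 2 called. It stood at 8.75 and 8.49 with shRING1B, 7.51 and 7.48 with shBMI1 and 7.71 and 7.86 with shGFP. The difference was 1.13 ± 0.11, or 2.18-fold (adjusted p = 0.0439). Its close relatives KRTAP2-1, KRTAP2-2 and KRTAP2-4 were at 0.27, -0.10 and 0.16 without passing, and because these genes have near-identical copies the assignment of the signal to KRTAP2-3 is uncertain.

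Leaving out any 1 of the 8 arrays ended both calls. The adjusted p of LIF and of KRTAP2-3 was 0.155 without either shGFP array, 0.345 and 0.109 without shRING1B replicates 1 and 2, 0.435 and 0.264 without shBMI1 replicates 1 and 2, and 0.197 without either shEZH2 array. The difference of LIF then ranged from 0.84 to 1.01 and that of KRTAP2-3 from 1.00 to 1.26. With a trended robust variance 38 genes were called, 24 higher and 14 lower, and without the dimmest 30% of genes 18 were called, 13 higher and 5 lower, with LIF and KRTAP2-3 among them in each.

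**Figure D1:**
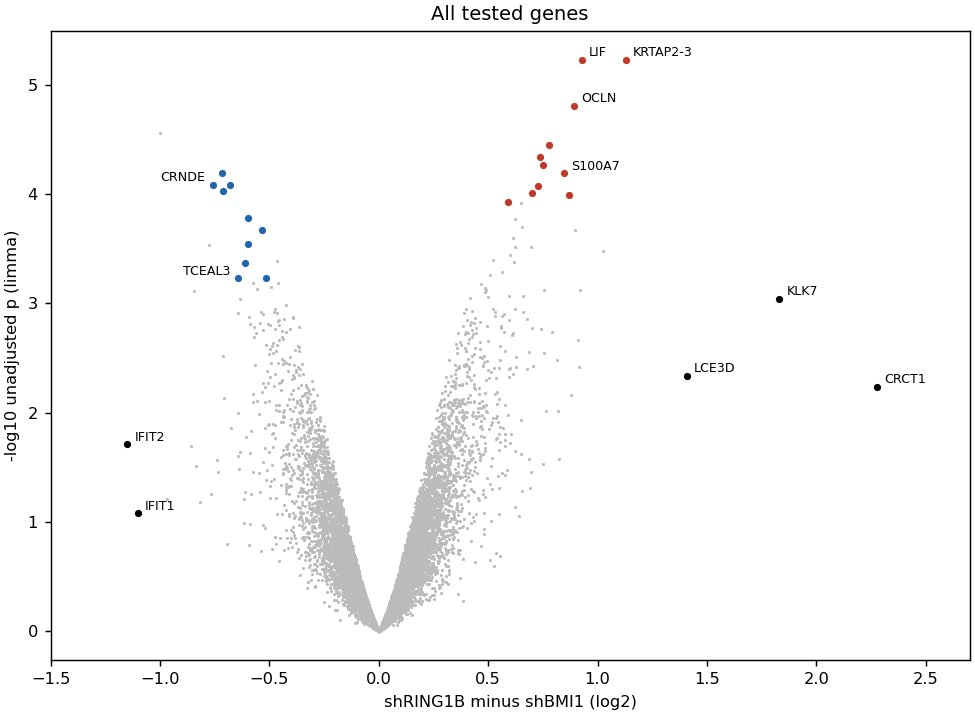
Difference between shRING1B and shBMI1 (log2, x axis) against the unadjusted limma p (-log10, y axis) for all tested genes. Red points are KRTAP2-3 and the 10 named genes higher with shRING1B, blue points the 10 named genes with lower values, and black points CRCT1, KLK7, LCE3D, IFIT2 and IFIT1, whose differences were larger than those of most coloured genes but whose arrays of a hairpin lay far apart. LIF and KRTAP2-3 stand at the top.

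To show the sequence context of genes that differed in each direction, the 250 bases before the annotated start are given for KRTAP2-3 and OCLN, at higher values with shRING1B, and for IGF2BP3 and CRNDE, at lower values. They are RefSeq sequences on GRCh38.p14, written 5′ to 3′ on the gene's own strand, and capitals mark CpG dinucleotides, the feature of the CpG islands where mammalian Polycomb complexes are known to gather. KRTAP2-3 (chr17:41060115-41060364, minus strand) has 4 CpG, OCLN (chr5:69492297-69492546, plus strand) 24, IGF2BP3 (chr7:23470492-23470741, minus strand) 15 and CRNDE (chr16:54928887-54929136, minus strand) 33. Among 10749 tested genes with an entry the median was 18, and 84.9%, 32.7%, 59.7% and 10.8% of them had at least as many CpG as these 4 genes in the same order. An entry existed for 72.2% of tested genes, for 7 of the 10 named higher genes and for 5 of the 10 named lower genes, so a comparison of promoter classes between these sets is void.
KRTAP2-3: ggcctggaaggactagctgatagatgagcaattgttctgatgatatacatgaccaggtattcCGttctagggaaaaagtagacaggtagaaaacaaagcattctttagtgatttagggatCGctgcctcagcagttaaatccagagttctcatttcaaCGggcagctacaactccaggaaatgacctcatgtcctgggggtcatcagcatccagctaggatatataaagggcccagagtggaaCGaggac
OCLN: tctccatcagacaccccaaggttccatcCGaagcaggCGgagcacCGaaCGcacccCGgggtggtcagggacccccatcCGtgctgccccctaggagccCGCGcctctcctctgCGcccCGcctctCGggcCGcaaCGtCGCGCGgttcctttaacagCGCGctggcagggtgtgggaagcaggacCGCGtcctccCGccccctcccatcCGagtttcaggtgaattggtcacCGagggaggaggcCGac
IGF2BP3: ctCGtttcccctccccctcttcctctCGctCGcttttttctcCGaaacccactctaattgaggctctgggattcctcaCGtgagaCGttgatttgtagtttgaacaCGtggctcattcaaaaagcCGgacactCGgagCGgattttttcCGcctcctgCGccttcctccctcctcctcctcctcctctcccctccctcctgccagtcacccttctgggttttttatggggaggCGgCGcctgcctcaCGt
CRNDE: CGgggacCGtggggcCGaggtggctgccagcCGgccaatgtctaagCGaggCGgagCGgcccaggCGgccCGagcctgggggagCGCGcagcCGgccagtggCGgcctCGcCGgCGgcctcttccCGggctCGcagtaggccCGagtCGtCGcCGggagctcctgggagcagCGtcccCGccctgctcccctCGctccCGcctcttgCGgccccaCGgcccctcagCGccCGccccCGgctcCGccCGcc

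The 10 named genes with higher values after shRING1B differed from shBMI1 by 0.59 to 0.93, and all but LIF missed the adjusted threshold (adjusted p up to 0.104). In some the shRING1B arrays stood away from the control, in others the shBMI1 arrays. In OCLN, S100A7, LIF and TMTC2 both shRING1B arrays lay above and both shBMI1 arrays below the 2 shGFP arrays. For LIF and TMTC2 the shBMI1 arrays were only slightly below. These placements use the same shGFP arrays for both knockdowns and are given as values; no gene was called against shGFP with either hairpin (0% each by limma, with 1280 genes at an unadjusted p under 0.05 for shRING1B, 8.6%, and 830 for shBMI1, 5.58%). Of all genes 4.8% had such a p with higher values and 3.8% with lower values for shRING1B, and 2.89% and 2.69% for shBMI1.

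OCLN encodes occludin, a membrane protein of tight junctions. Its arrays read 6.99 and 6.81 with shRING1B, 5.99 and 6.03 with shBMI1 and 6.33 and 6.43 with shGFP, so the control arrays lay between the knockdowns with no overlap. The difference was 0.89 ± 0.10 (adjusted p = 0.077), made of 0.52 ± 0.10 for shRING1B minus shGFP and -0.37 ± 0.10 for shBMI1 minus shGFP. OCLN passed over protein-coding genes alone (adjusted p = 0.032), without the dimmest genes (0.0178) and with the trended robust variance (0.00844).

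HEPHL1, STC1, BMP2, TMTC2 and ACOXL were high on the shRING1B arrays, with the shBMI1 arrays near shGFP. HEPHL1, a copper-dependent ferroxidase, stood at 6.53 and 6.46 with shRING1B against 5.78 and 5.66 with shBMI1 and 5.71 and 5.59 with shGFP, a difference of 0.78 ± 0.09 (adjusted p = 0.102). STC1, the secreted glycoprotein stanniocalcin 1, stood at 8.43 and 8.26 against 7.52 and 7.67, with shGFP at 7.39 and 7.43, a difference of 0.75 ± 0.10 (adjusted p = 0.102). The shBMI1 arrays of STC1 were thus both slightly above the control arrays.

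BMP2, a bone morphogenetic protein and a known Polycomb target in development, read 7.42 and 7.19 with shRING1B and 6.57 on each shBMI1 array, with shGFP at 6.60 and 6.49. The difference was 0.73 ± 0.10 (adjusted p = 0.102). TMTC2, an O-mannosyltransferase of the endoplasmic reticulum, was at 0.70 ± 0.10, and ACOXL, related to peroxisomal acyl-CoA oxidases, at 0.87 ± 0.12 (both adjusted p = 0.102). LIF, HEPHL1, STC1 and BMP2 also lay above shGFP on the shEZH2 arrays, by 0.67, 1.12, 0.77 and 0.79, each called there (adjusted p from 0.00489 to 0.0191). OCLN and S100A7 were called higher there too, by 0.87 and 0.90 (adjusted p = 0.0109 and 0.017 by limma). KRTAP2-3 was called lower there, at -0.69 (adjusted p = 0.0367 by limma), and TMTC2, ACOXL, ADIRF and RASEF were not called.

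ADIRF, S100A7 and RASEF showed the other placement, with the larger difference from shGFP on the shBMI1 side. ADIRF, a regulator first described in fat cell formation, read 7.23 and 7.40 with shRING1B, 6.52 and 6.63 with shBMI1 and 7.26 and 7.27 with shGFP. The difference of ADIRF was 0.74 ± 0.09 (adjusted p = 0.102), with -0.69 ± 0.09 for shBMI1 minus shGFP and 0.05 ± 0.09 for shRING1B minus shGFP. RASEF, a Rab-type GTPase with a calcium-binding domain, was at 0.59 ± 0.09 (adjusted p = 0.104), with -0.58 ± 0.09 and 0.01 ± 0.09 against the control in the same order.

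S100A7, the epidermal alarmin psoriasin, read 6.16 and 6.31 with shRING1B, 5.30 and 5.48 with shBMI1 and 5.89 and 6.08 with shGFP. The difference was 0.85 ± 0.11 (adjusted p = 0.102), with -0.60 ± 0.11 on the shBMI1 side and 0.25 ± 0.11 on the shRING1B side. Its relatives S100A7A, S100P and S100A9 were at 0.26, 0.24 and 0.16. Of the 12 measured genes of the antimicrobial and S100 list, which does not hold every S100 gene, S100A7 alone had an unadjusted p under 0.05. Of all genes 9.18% did.

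**Figure D2:**
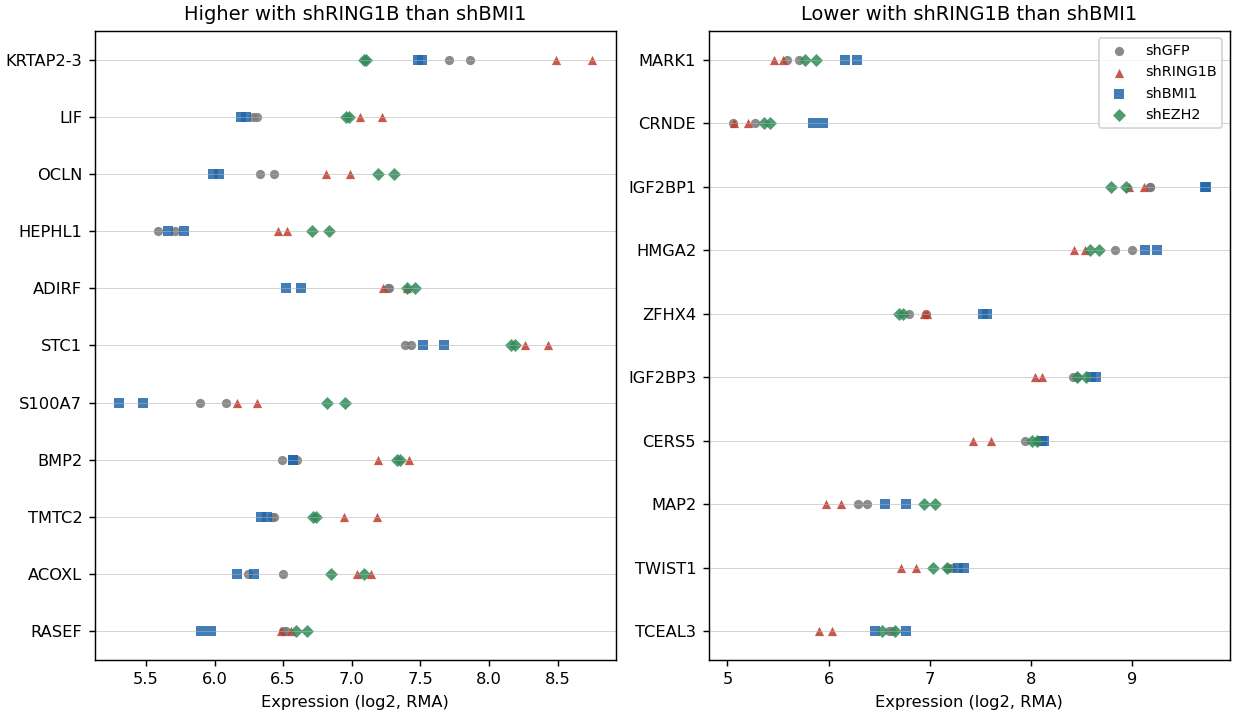
Expression (log2, x axis) of KRTAP2-3 and the 20 named genes on each of the 8 arrays; each symbol is 1 array, coloured by hairpin. In every row the 2 red triangles (shRING1B) and the 2 blue squares (shBMI1) do not overlap, while the grey circles (shGFP) sit beside one or the other or between them.

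The 10 named genes with lower values after shRING1B differed by -0.76 to -0.52 and none passed (adjusted p from 0.102 to 0.237). They include IGF2BP1 and IGF2BP3, RNA-binding proteins that steady messenger RNAs, and HMGA2, a chromatin protein that bends DNA.

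IGF2BP1 read 9.12 and 8.97 with shRING1B, 9.72 and 9.73 with shBMI1 and 9.18 on each shGFP array. The shBMI1 arrays alone stood apart, and the difference was -0.68 ± 0.09 (adjusted p = 0.102), with 0.55 ± 0.09 for shBMI1 minus shGFP. HMGA2 read 8.53 and 8.43 with shRING1B, 9.25 and 9.13 with shBMI1 and 9 and 8.83 with shGFP, so the control lay between the knockdowns. Its difference was -0.71 ± 0.10 (adjusted p = 0.102), with -0.44 ± 0.10 and 0.27 ± 0.10 against shGFP for shRING1B and shBMI1.

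IGF2BP3 had the same order as HMGA2, at 8.11 and 8.04 with shRING1B, 8.64 and 8.59 with shBMI1 and 8.46 and 8.42 with shGFP. Its difference was -0.54 ± 0.08 (adjusted p = 0.145). The third member of the family, IGF2BP2, chosen after its values were seen, was at -0.09 ± 0.10, with 9.21 and 9.14 against 9.35 and 9.18. IGF2BP1 and HMGA2 passed with the trended robust variance (adjusted p = 0.00629 and 0.00743) and without the dimmest genes (0.0324 each).

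MARK1, CRNDE and ZFHX4 also had their shBMI1 arrays above all others. MARK1, a kinase that acts on microtubule-binding proteins, read 6.16 and 6.28 with shBMI1 against 5.46 and 5.55 with shRING1B and 5.59 and 5.71 with shGFP, a difference of -0.72 ± 0.10 (adjusted p = 0.102). CRNDE, a long noncoding RNA, read 5.94 and 5.85 with shBMI1 against 5.06 and 5.2, with shGFP at 5.27 and 5.05, a difference of -0.76 ± 0.10 (adjusted p = 0.102). ZFHX4, a large zinc finger and homeodomain factor, was at -0.60 ± 0.09 (adjusted p = 0.132), with 0.68 ± 0.09 for shBMI1 minus shGFP and 0.08 ± 0.09 for shRING1B minus shGFP.

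CERS5, TWIST1 and TCEAL3 were low on the shRING1B arrays instead. CERS5, a ceramide synthase, read 7.43 and 7.61 with shRING1B, 8.13 and 8.11 with shBMI1 and 7.94 and 8.08 with shGFP. Its difference was -0.60 ± 0.10 (adjusted p = 0.170). TCEAL3, a small transcription elongation factor-like protein, was at -0.64 ± 0.12 and the mesenchymal transcription factor TWIST1 at -0.52 ± 0.09 (both adjusted p = 0.237).

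MAP2, a microtubule protein of neurons, was at -0.61 ± 0.11 (adjusted p = 0.194), with -0.29 ± 0.11 and 0.32 ± 0.11 against shGFP for shRING1B and shBMI1. In 8 of the 10 lower genes and 7 of the 10 higher genes the shGFP mean lay between the means of the 2 knockdowns.

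**Figure D3:**
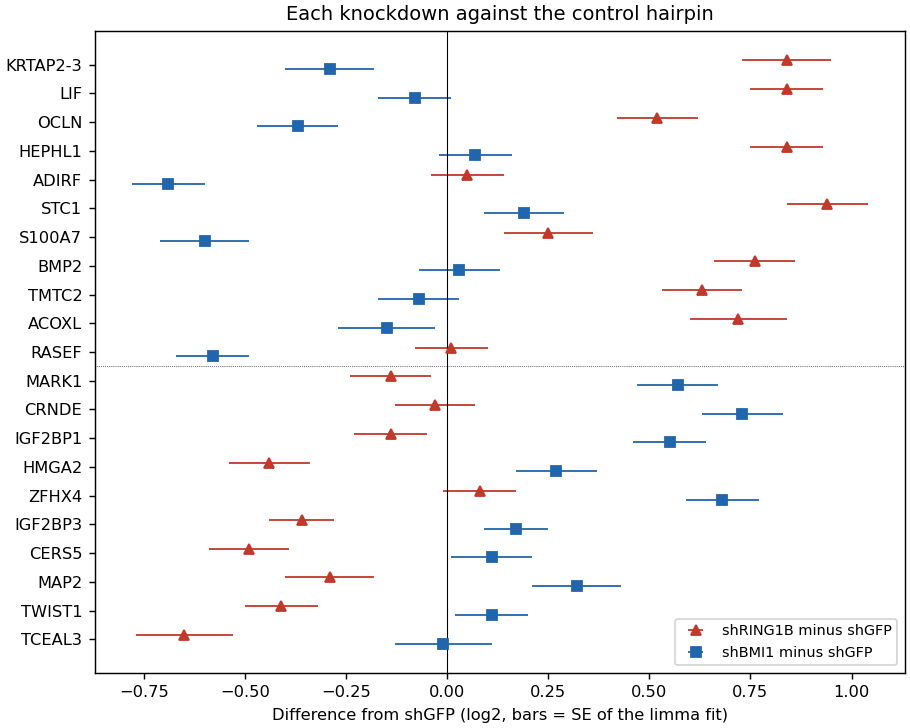
Difference of each knockdown from shGFP (log2, x axis; bars are SE of the limma fit, n = 2 arrays per group) for KRTAP2-3 and the 20 named genes. Above the dotted line are genes higher with shRING1B than shBMI1, below it genes with lower values; for ADIRF, RASEF, CRNDE and ZFHX4 the shRING1B symbol lies at about 0, and for LIF, HEPHL1 and BMP2 the shBMI1 symbol does.

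Outside the rule for names, which leaves out small RNAs, the lowest unadjusted p of any gene with a lower value belonged to MIR545. This microRNA gene was chosen after its value was seen. Its probe set read 5.04 and 4.78 with shRING1B, 5.97 and 5.84 with shBMI1 and 5.9 and 6 with shGFP, a difference of -1 ± 0.12 (adjusted p = 0.102). Such a probe set reads the precursor region and not the mature form. The mature products (RefSeq, GRCh38.p14, minus strand, chrX:74287126-74287147 for the 3p and chrX:74287164-74287185 for the 5p form) are shown with the seed, bases 2 to 8, in capitals, and their seeds differ.
hsa-miR-545-3p: uCAGCAAAcauuuauugugugc
hsa-miR-545-5p: uCAGUAAAuguuuauuagauga

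The other subunits of the Polycomb machinery differed little between the knockdowns. Of 10 measured core, CBX and PHC subunits of PRC1, none was called and SCMH1 alone had an unadjusted p under 0.05, at -0.22 ± 0.09. Of all genes 9.18% had such a p. RING1, the paralogue that can replace RING1B as the ligase, read 9.92 and 9.83 with shRING1B and 9.73 and 9.85 with shBMI1, a difference of 0.08 ± 0.09. PCGF2, the closest relative of BMI1, read 10.55 and 10.48 against 10.50 and 10.62. The arrays of the 2 hairpins overlapped for both genes.

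The chromobox proteins CBX2, CBX6 and CBX7, which read methylated histone H3, were at -0.18 ± 0.10, 0.18 ± 0.08 and 0.13 ± 0.10. Of 18 variant PRC1 subunits, FBRS alone had an unadjusted p under 0.05 (-0.22 ± 0.09), where 9.18% of all genes did. PCGF5, FBRSL1 and CBX3 were at 0.13, 0.19 and -0.13. Of 11 PRC2 subunits none had such a p, with EPOP at 0.18 ± 0.09, PHF19 at -0.16 ± 0.08, EZH2 at -0.09 ± 0.12 and MTF2 at -0.09 ± 0.09.

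Among 7 enzymes that remove H2A ubiquitin or H3K27 methylation, or their partners, 2 had an unadjusted p under 0.05, both higher (5.21% of all genes). ASXL3 was at 0.48 ± 0.17, a dim gene at 4.72 and 4.85 with shRING1B and 4.24 and 4.36 with shBMI1. The demethylase KDM6B was at 0.28 ± 0.11. KDM6B read 8.01 and 7.74 with shRING1B and 7.64 and 7.55 with shBMI1. The median of these 4 lists lay between -0.08 and 0.04. CDKN2A, which makes the cell cycle inhibitor p16 and is the best-known target of BMI1, read 6.97 and 6.86 against 6.95 and 7.01, with shGFP at 7.01 and 6.91. Its difference was -0.06 ± 0.09 (adjusted p = 0.897), and only 2 of the 13 listed inhibitors and senescence genes were measured.

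Among the classical targets of the complex, values lay on both sides of 0. Of 27 HOX genes, which pattern the body axis, 13 had values above 0 and 14 below, with a median of -0.02 and 1 gene at an unadjusted p under 0.05 in each direction. Of all genes 5.21% had such a p with higher values and 3.98% with lower values. HOXB9 read 9.29 and 9.09 with shRING1B, 8.70 and 8.67 with shBMI1 and 8.59 and 8.62 with shGFP. Its difference was 0.51 ± 0.09 (adjusted p = 0.235), while HOXD13 was at -0.35 ± 0.15.

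Of 43 other developmental targets, 5 had an unadjusted p under 0.05 with higher values (5.21% of all genes did) and 3 with lower values (3.98%), around a median of 0.01. GATA6, a factor of endoderm and heart, read 8.69 and 8.48 with shRING1B and 8.02 and 7.96 with shBMI1 (0.60 ± 0.12, adjusted p = 0.245). ZIC2, a zinc finger factor of the early nervous system, ran the other way, at 6.47 and 6.21 against 6.96 and 6.80, with shGFP at 6.11 and 5.96. Both knockdowns of ZIC2 lay above the control arrays, by 0.30 ± 0.12 with shRING1B and 0.85 ± 0.12 with shBMI1, and the difference was -0.54 ± 0.12 (adjusted p = 0.245). HAND1 was at 0.37 ± 0.08.

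Growth factors of the EGF, FGF and TGF-beta families had the highest median of the 29 lists. Of 21 measured, 15 had values above 0 (51.2% of all genes did), and the median was 0.19 where that of all genes was 0. With higher values 9 had an unadjusted p under 0.05 (5.21% of all genes did), with lower values none (3.98%). Besides BMP2, which the developmental list also holds, the differentiation factor BMP7 was at 0.41 ± 0.09, the EGF receptor ligand HBEGF at 0.41 ± 0.10 and the stress-induced factor GDF15 at 0.42 ± 0.17. GDF15 was at 0.68 without shBMI1 replicate 1 and 0.16 without replicate 2. HBEGF read 8.14 and 8.06 with shRING1B against 7.62 and 7.76 with shBMI1, with shGFP at 7.65 and 7.86. Against shGFP the list's median was 0.16 with shRING1B and -0.01 with shBMI1.

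Cytokines and NF-kB genes had the same placement, with shBMI1 near the control. Of 23 cytokines and colony-stimulating factors, LIF was called, and the median was 0.10. At an unadjusted p under 0.05 stood 8 with higher values (5.21% of all genes) and none with lower values (3.98%). CSF3, which drives granulocyte production, read 9.43 and 9.03 with shRING1B and 8.07 and 9 with shBMI1, so 1 shBMI1 array nearly reached the shRING1B arrays (0.69 ± 0.27). IL24 was at 0.69 ± 0.30, with arrays at 10.34 and 9.39 against 9.34 and 9.01, and IL20, its relative, at 0.66 ± 0.14, with arrays at 5.74 and 5.55 against 4.92 and 5.05. The cytokine median was 0 without shRING1B replicate 1 and 0.22 without replicate 2.

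Of 24 NF-kB subunits, regulators and targets, 18 had values above 0, around a median of 0.11. Of the 24, 7 had an unadjusted p under 0.05, all with higher values (5.21% of all genes did so). PTGS2, the inducible cyclooxygenase, read 11.19 and 11.29 with shRING1B and 10.54 and 10.84 with shBMI1, a difference of 0.56 ± 0.14 (adjusted p = 0.292). ICAM1, an adhesion molecule for leukocytes, was at 0.43 ± 0.16, TNIP1 at 0.41 ± 0.15 and SAA1, an acute phase protein, at 0.60 ± 0.20. Leaving out 1 array moved ICAM1 between 0.22 and 0.64, TNIP1 between 0.22 and 0.60 and SAA1 between 0.28 and 0.92, the ends of ICAM1 set by the shRING1B arrays and those of TNIP1 and SAA1 by the shBMI1 arrays. In 13 of the 24 genes both shRING1B arrays lay above both shBMI1 arrays, against 19.3% of all genes.

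Chemokines were mixed. Of 31 measured, 5 had an unadjusted p under 0.05 with higher values (5.21% of all genes did) and 1 with lower values (3.98%). CXCL8, which draws neutrophils, read 8.18 and 7.35 with shRING1B and 6.83 and 6.87 with shBMI1 (0.91 ± 0.23, adjusted p = 0.292). CCL20 read 7.31 and 6.62 against 5.89 and 6.41 (0.82 ± 0.24, adjusted p = 0.374). CXCL10, an interferon-induced chemokine, was at -0.77 ± 0.34, with arrays at 5.19 and 5.09 against 5.78 and 6.04. Its shGFP arrays lay far apart, at 4.55 and 5.83. CCL7, which draws monocytes, was at -0.50 ± 0.21, a dim gene with arrays at 3.70 and 3.95 against 4.47 and 4.18. The median of the list, 0.06, turned to -0.03 without shBMI1 replicate 1.

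**Figure D4:**
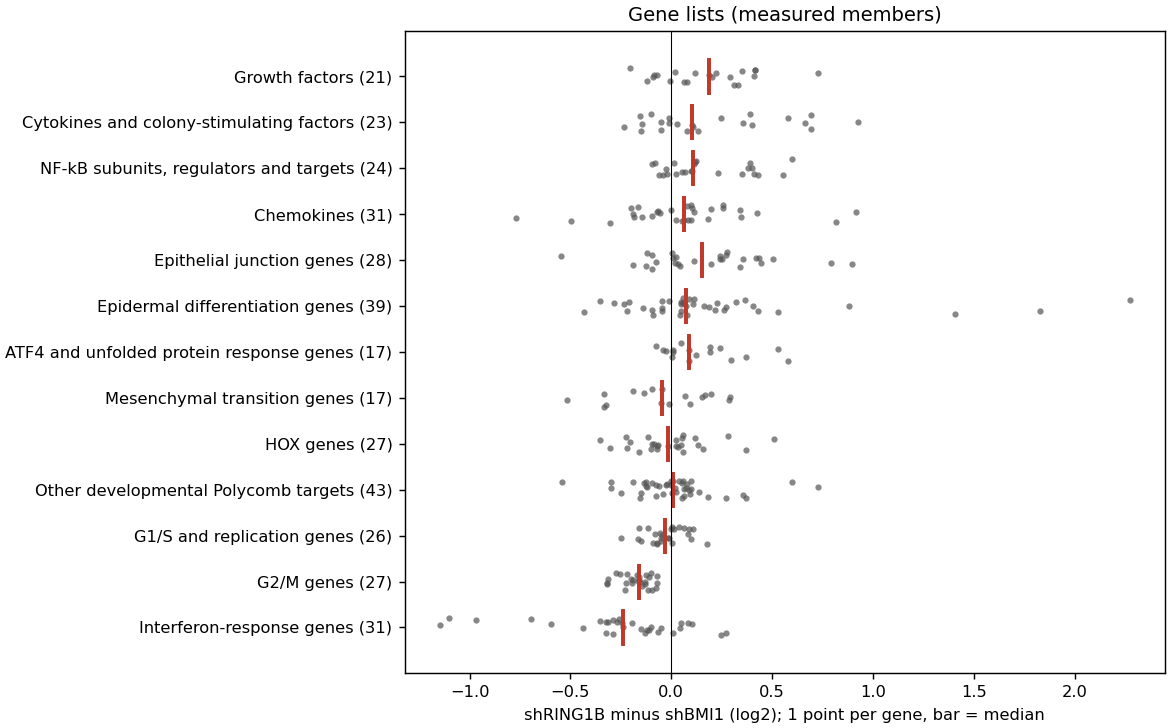
Difference between shRING1B and shBMI1 (log2, x axis) for the measured members of 13 gene lists; each point is 1 gene and the red bar is the list's median, with the number of measured genes in brackets. The growth factor median is 0.19, the interferon-response median -0.24, and all 27 G2/M genes lie below 0.

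Interferon-response genes had the lowest median of the lists, -0.24 over 31 measured genes, with 24 values below 0. An unadjusted p under 0.05 was reached by 4 genes with lower values (3.98% of all genes) and 1 with a higher value (5.21%). IFIT2, an interferon-induced RNA-binding protein, read 5.26 and 6.28 with shRING1B and 6.55 and 7.28 with shBMI1 (-1.15 ± 0.40, adjusted p = 0.438). IFIT1 was at -1.10 ± 0.56, with arrays at 4.85 and 6.18 against 6.11 and 7.12, and IFI44 at -0.97 ± 0.45.

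These genes varied widely between arrays of 1 hairpin. The list's mean, relative to all arrays, was -0.29 and 0.04 on the 2 shRING1B arrays, -0.04 and 0.30 on the 2 shBMI1 arrays and -0.15 and 0.29 on the 2 shGFP arrays, so the groups overlapped. In each of these hairpins replicate 2 was the higher, and within either replicate number shRING1B lay below shBMI1. The 2 shEZH2 arrays showed no such step, at -0.08 and -0.07. The labels name no batch shared by equal numbers. The part of this array-to-array spread in the differences was not tested. Leaving out 1 array at a time or changing the processing moved the median between -0.40 and -0.07.

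Epithelial junction genes had a median of 0.15 over 28 measured members. Higher values with an unadjusted p under 0.05 were found in 11 (5.21% of all genes) and a lower value in 1 (3.98%). The shift of the list's median lay on the shBMI1 side, where the median against shGFP was -0.18, while that of shRING1B was -0.02. CLDN1, a claudin of tight junctions, read 6.81 and 7.13 with shRING1B, 5.92 and 6.43 with shBMI1 and 6.51 and 6.42 with shGFP (0.79 ± 0.17, adjusted p = 0.245). CLDN4 was at 0.50 ± 0.16. Against shGFP, OCLN, CLDN1 and CLDN4 were at 0.52, 0.50 and 0.30 with shRING1B and at -0.37, -0.29 and -0.21 with shBMI1. These members thus had values on both sides of the control, unlike the median. The desmosomal cadherin DSC3 ran the other way, at -0.55 ± 0.22, with arrays at 7.56 and 7.19 against 8.14 and 7.70.

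Mesenchymal transition genes had a median of -0.05 over 17 members. Among them 1 with a higher (5.21% of all genes) and 2 with lower values (3.98%) had an unadjusted p under 0.05. Besides TWIST1, the transcription factor ZEB2 read 5.71 on each shRING1B array and 6.02 and 6.06 with shBMI1 (-0.33 ± 0.09), with shGFP at 5.57 and 5.45. ZEB1 and the intermediate filament protein VIM were at -0.33 ± 0.23 and -0.32 ± 0.15. Over 5 measured fibroblast markers the median was -0.07, and DCN had an unadjusted p under 0.05, at -0.31 ± 0.10; the part of other cells in the mesenchymal values was not tested.

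The 3 largest differences of all tested genes were in epidermal differentiation genes, and none passed in the fit reported here. CRCT1, a cornified envelope-related protein, read 7.85 and 9.25 with shRING1B, 5.34 and 7.21 with shBMI1 and 6.74 and 7.41 with shGFP. The difference was 2.28 ± 0.61 (adjusted p = 0.333), and the 2 arrays of a hairpin lay more than 1 apart in each knockdown. It ranged from 1.34 without shBMI1 replicate 1 to 3.21 without shBMI1 replicate 2. KLK7, a protease that loosens the outer skin layer, read 8.23 and 9.17 against 6.36 and 7.38, with shGFP at 7.15 and 7.33, a difference of 1.83 ± 0.36 (adjusted p = 0.245). In both genes replicate 2 read higher than replicate 1 with shRING1B, shBMI1 and shGFP. With shEZH2 it did not, at 5.76 and 5.75 for CRCT1 and 7.18 and 7.05 for KLK7.

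LCE3D, a late cornified envelope protein, was at 1.41 ± 0.36 and CNFN, cornifelin, at 0.88 ± 0.24, again with shRING1B arrays above both shBMI1 arrays. Over the whole list the differences were smaller: of 39 measured members 26 had values above 0, and the median was 0.07. Among the 39, 7 with higher (5.21% of all genes) and 2 with lower values (3.98%) had an unadjusted p under 0.05. Among the lower values was CERS3, chosen after its value was seen, which makes the very long ceramides of the epidermal barrier, at 5.80 and 5.88 with shRING1B, 6.30 and 6.24 with shBMI1 and 6.47 and 6.51 with shGFP.

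CRCT1, LCE3D, S100A7 and PRR9 are neighbours in the epidermal differentiation complex of chromosome 1, and KLK5, KLK6 and KLK7 in the kallikrein cluster of chromosome 19. These clusters were chosen after the values of these genes were seen. The same genes are counted in the shares below, which were thus raised by the choice and are no support. Of 61 measured genes between S100A10 and S100A1, 6 with higher and 3 with lower values had an unadjusted p under 0.05 (14.8%, against 9.18% of all genes). Their median was 0.05. Besides the named neighbours, those with such a p were SPRR2F and S100A5, higher, and S100A10, HRNR and SPRR4, lower. PRR9 read 7.30 and 7.32 with shRING1B against 6.22 and 6.61 (0.90 ± 0.14, adjusted p = 0.145), and SPRR2F was at 0.54 ± 0.18. Of 16 measured genes of the kallikrein cluster 4 with higher values and none with lower values had such a p (25%, against 9.18%). KLK5 was at 0.43 ± 0.14 and KLK6 at 0.32 ± 0.13. Besides these and KLK7, KLKP1 alone had such a p in that cluster, at 0.27 ± 0.11.

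**Figure D5:**
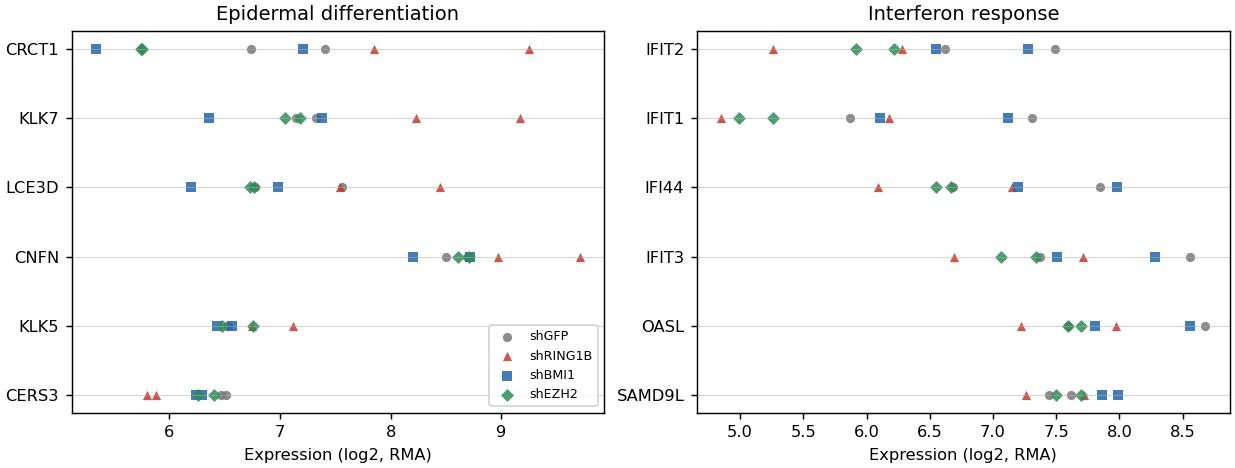
Expression (log2, x axis) of 6 epidermal differentiation genes and 6 interferon-response genes on each of the 8 arrays, coloured by hairpin. For CRCT1, KLK7, LCE3D and CNFN both shRING1B arrays lie above both shBMI1 arrays although arrays of 1 hairpin lie far apart, and for IFIT1, IFI44 and IFIT3 the arrays of 1 hairpin spread as widely as the hairpins differ.

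Genes of late cell division had small differences of 1 sign. All 27 measured G2/M genes had values below 0, around a median of -0.16. An unadjusted p under 0.05 was reached by 7 (3.98% of all genes did with lower values), and none was called. CDK1, the kinase that starts mitosis, read 9.53 and 9.57 with shRING1B and 9.99 and 9.74 with shBMI1 (-0.31 ± 0.11), with shGFP at 9.93 and 9.82. The kinesin KIF20A and CDCA3 were each at -0.32. In 18 of the 27 both shRING1B arrays lay below both shBMI1 arrays, against 17.1% of all genes. The genes share the same arrays, so these counts are not separate observations. The list's mean, relative to all arrays, was -0.12 and 0.02 with shRING1B, 0.17 and 0.08 with shBMI1 and 0.1 on each shGFP array. Against shGFP its median was -0.13 with shRING1B and 0.02 with shBMI1. Of 26 G1/S and replication genes 16 had values below 0, 1 of them with an unadjusted p under 0.05 (3.98% of all genes), and the median was -0.03.

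Of 17 genes under ATF4 and the unfolded protein response, 14 had values above 0. With higher values 4 had an unadjusted p under 0.05 (5.21% of all genes did), with lower values none (3.98%). STC2 was at 0.58 ± 0.17, the pseudokinase TRIB3 at 0.53 ± 0.13 and CTH, which makes cysteine, at 0.37 ± 0.09. The median of 0.09 became -0.01 without shRING1B replicate 1 and 0.23 without replicate 2. Of 13 hypoxia and glycolysis genes, STC1 and the vasodilator peptide ADM (0.35 ± 0.09) had an unadjusted p under 0.05, both with higher values (5.21% of all genes). Of 15 cholesterol synthesis genes, DHCR7 (0.31 ± 0.12) and HMGCS1 (0.28 ± 0.10) did, also higher (5.21%), and the median was 0.11. Of 20 protocadherins 1 with a higher (5.21%) and 3 with lower values (3.98%) did, with PCDH18 at -0.53 ± 0.12. Of 16 heat shock and immediate early genes 2 with higher values (5.21%) and 1 with a lower value (3.98%) did, around a median of -0.04. Of 11 ribosomal protein genes 1 with a lower value did (3.98%), around a median of -0.08.

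Markers of cell identity differed little. Of 7 measured basal keratinocyte genes none had an unadjusted p under 0.05, where 9.18% of all genes did, and the median was -0.06. Among markers of other cell types none of 9 leukocyte and none of 7 melanocyte genes did, and 1 of 7 endothelial genes did, VWF, with a lower value. Their medians lay between 0.02 and 0.03.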

How the data were processed

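The authors deposited 1 table of log2 expression values for 53617 probe sets on 8 arrays, made with RMA; the submitters' processing notes list RMA and limma. Versions, probe library and build were not given in the sources used here. By design RMA equalises the arrays' distributions and shrinks differences of dim probe sets. The values had 0 missing entries and no 2 arrays were identical. Names came from GEO's platform annotation, updated by gene ID through RefSeq: 16098 had 1 symbol, 0 several and 37519 none. For the 779 genes with more than 1 probe set, the brightest on average over the 8 arrays was used, leaving 14884 genes, 11916 of them protein-coding.

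A mean per hairpin was fitted over all 8 arrays with limma 3.58.1 in R 4.3.3 (4 residual degrees of freedom, empirical Bayes without trend, no filter), with two-sided Benjamini-Hochberg adjusted p under 0.05 as the call. The fit was tested on simulated data. Named genes are the called genes, and those with the smallest p, up to 10 in each direction, whose arrays do not overlap, and up to 4 members of each list. Unplaced, small RNA, antisense, pseudogene, olfactory and keratin-associated symbols were left out. The comparison, the 29 lists and the alternatives were chosen with earlier results of these data known. The lists carry no test.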

Additional observations from a re-analysis of the deposited data

How the results depend on the processing

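The number of genes called between shRING1B and shBMI1 by limma, 2 as reported, stayed at 2 after quantile normalization and when probe sets were averaged per gene, and was 3 over protein-coding genes alone. It was 38 with a trended robust variance, 18 when the dimmest 30% were left out, 7 with the replicate number as a block in only the 4 arrays compared and 1 with a minimum change of 1. It was 0 after median centring, over all probe sets, with array weights, with only the 4 arrays compared, without the shEZH2 arrays and with the replicate number as a block, where 1409, 4487, 1153, 1122, 1210 and 1495 had an unadjusted p under 0.05. Leaving out 1 array gave 0 to 0 called and 1154 to 1415 at that threshold. In the blocked fit of those 4 arrays the calls included KRTAP2-3 (adjusted p = 0.038 by limma), CRCT1 and KLK7 (0.00127 each), LCE3D (0.00733), IFIT2 (0.038) and IFIT1 (0.0452), while LIF was not called (0.0674); over all 8 arrays with the block these were at 0.0954 to 0.277. Replicate deviations over genes correlated at 0.091 between shRING1B and shBMI1, 0.116 between shGFP and shRING1B and 0.248 between shGFP and shBMI1. Those of shEZH2 correlated at 0.02 with shGFP, 0.001 with shRING1B and 0.086 with shBMI1. With 2 numbers only and no shared batch in the labels, equal numbers were not taken as pairs. The blocked fit of the 4 arrays also leaves almost no residual degrees of freedom. Its small adjusted p-values thus rest mostly on the spread borrowed across genes and are no stronger evidence than the main fit. Against shGFP, shRING1B had 9 calls over protein-coding genes, 11 without the dimmest genes and 36 with the trended variance, while shBMI1 had 0 in each alternative run (571 to 2764 at an unadjusted p under 0.05). The 20 named genes, 10 in each direction, kept their direction in every alternative. None of them moved by over 1.5 times when 1 array was left out, while 52 of the other 80 single genes followed did. The 20 were picked from these same arrays by a small p and by hairpin groups that do not overlap. Their steadiness was thus largely fixed by the choice and is no support for them. Uncalled genes near 0 changed sign without 1 array: ANGPTL4 ranged from -0.01 (without shBMI1 replicate 1) to 0.49, EZH2 from -0.22 to 0.03 (without shRING1B replicate 1; 0 without shBMI1 replicate 2), LMNB1 from -0.27 to 0, MTF2 from -0.18 to 0 and S100A9 from -0.03 to 0.35 (the last 3 turning without shRING1B replicate 1), and PCGF5 from -0.06 (without shRING1B replicate 2) to 0.33. The cause of these changes was not tested.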
